A study of Mus musculus with 4 samples.

Results

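The genes described here are 9 neurotrophic ligands and receptors, taken by symbol from the 32285 genes counted in every library. The ligands are Bdnf, Ntf3, Gdnf and Artn, and the receptors are Ngfr, Ntrk2, Ntrk3, Gfra1 and Gfra3. Their transcripts were counted by droplet single-cell RNA sequencing of hindlimb muscle (tibialis anterior with gastrocnemius) from males aged 2 months. The wild type animals (WT) carried the S100GFP-tg reporter, in which the S100B promoter drives EGFP so that Schwann cells fluoresce, and the Sod1KO animals carried the same reporter on a Sod1-/- background. Muscles of 4 mice per genotype were pooled and sorted by fluorescence into GFP+ and GFP- cells that excluded propidium iodide. Each fraction of each pool gave 1 library, so the groups have no replicate, and WT and Sod1KO name libraries as labelled. The reporter is a promoter transgene, and the GFP+ fraction held many cells other than Schwann cells.

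Neurotrophins are secreted growth factors that bind Trk receptor tyrosine kinases. BDNF, from Bdnf, binds TrkB, from Ntrk2, and NT-3, from Ntf3, binds mainly TrkC, from Ntrk3, while Ngfr encodes the low-affinity neurotrophin receptor that binds all of them. GDNF and artemin, from Gdnf and Artn, bind the lipid-anchored coreceptors encoded by Gfra1 and Gfra3, which signal with the tyrosine kinase Ret. In peripheral nerve these factors support motor, sensory and sympathetic neurons, and Schwann cells that have lost axon contact are a known source of GDNF, artemin and BDNF and carry Ngfr on their surface. Terminal Schwann cells cap the nerve terminal at the neuromuscular junction, and myelinating Schwann cells wrap the axon.

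The libraries held 2052 to 7267 barcodes and 21959719 to 105954116 UMIs (unique molecular identifiers, 1 per captured transcript), and WT GFP- was the shallowest. After filters on genes, mitochondrial share and doublets, 4557 WT and 5925 Sod1KO cells of the GFP+ sort and 1638 and 5143 of the GFP- sort were used, with median depths of 8030 to 14688 UMIs. Pairs of libraries shared 1 to 13 cell barcodes. The deposited cells carry no type labels, so the cells were clustered with the 54 genes of the member and pathway lists left out, and clusters were named by the marker genes they carried, with the ending -like. The label tSC-like stands for terminal or other nonmyelinating Schwann cells and mSC-like for myelinating Schwann cells. Of the cells used, 25.4% to 58.2% per library lay in clusters that were left unnamed and are given by number. Sod1, the targeted gene, had 91.1 CPM (UMIs of the gene per 1000000 UMIs of the summed cells) in the WT and 98.2 in the Sod1KO library of the GFP+ sort, and 124 and 113.5 in those of the GFP- sort. The 3′ end of a transcript is what was counted, and no source used here gives the deleted part of the allele, so these values do not check the genotype, and every direction below is that of libraries as labelled.

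With 1 library per group, no test between genotypes was possible. A member was called higher or lower in a cell class when its CPM in the 2 libraries lay at least 2-fold apart, the exact 95% interval of the ratio held no equality, and at least 10 UMIs had been counted in the 2 together. A count of 0 was set to 3 UMIs for the ratio, while its interval was taken from the counts as they were and can begin lower. Intervals cover counting error only, and a difference between libraries may be one between pools or preparations.

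The promoters of Gdnf, Artn, Ngfr and Gfra1, called higher in tSC-like cells of the library labelled Sod1KO, are shown so that genes that differed together in these cells can be read beside their upstream sequence. Bdnf was also called higher there, and its 7 promoters are not printed. The windows are the 250 bases before a RefSeq transcription start on GRCm38.p6 (mm10), written 5′ to 3′ on the strand of the gene. Capitals mark matches, on either strand, to the Sp1 word GGGCGG or to the TATA box word TATAAA. The words of AP-1 sites (TGANTCA), cyclic AMP response elements (TGACGTCA) and Egr sites (GCGTGGGCG) were searched in the same way, and no position was shared between matches. Gdnf 1 is chr15:7809798-7810047 (+), Gdnf 2 is chr15:7813477-7813726 (+), Artn is chr4:117929764-117930013 (-), Ngfr is chr11:95587699-95587948 (-) and Gfra1 is chr19:58455399-58455648 (-).
Gdnf 1: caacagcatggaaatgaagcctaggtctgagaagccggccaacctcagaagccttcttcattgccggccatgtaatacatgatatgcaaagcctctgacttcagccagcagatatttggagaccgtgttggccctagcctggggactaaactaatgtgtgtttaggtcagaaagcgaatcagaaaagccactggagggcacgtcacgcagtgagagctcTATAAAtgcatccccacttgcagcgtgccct
Gdnf 2: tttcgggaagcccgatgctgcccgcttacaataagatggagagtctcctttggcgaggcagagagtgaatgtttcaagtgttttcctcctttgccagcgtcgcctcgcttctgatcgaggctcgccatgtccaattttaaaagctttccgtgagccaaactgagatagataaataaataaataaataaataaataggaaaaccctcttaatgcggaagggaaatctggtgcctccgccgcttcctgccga
Artn: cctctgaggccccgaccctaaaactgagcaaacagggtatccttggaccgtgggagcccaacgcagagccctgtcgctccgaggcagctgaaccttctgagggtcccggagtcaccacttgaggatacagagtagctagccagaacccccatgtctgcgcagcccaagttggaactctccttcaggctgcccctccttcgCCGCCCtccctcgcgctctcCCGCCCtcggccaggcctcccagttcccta
Ngfr: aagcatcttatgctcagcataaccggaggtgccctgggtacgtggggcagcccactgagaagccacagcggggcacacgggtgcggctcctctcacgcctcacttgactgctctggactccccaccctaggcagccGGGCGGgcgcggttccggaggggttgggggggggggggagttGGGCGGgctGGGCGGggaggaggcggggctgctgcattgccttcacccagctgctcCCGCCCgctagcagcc
Gfra1: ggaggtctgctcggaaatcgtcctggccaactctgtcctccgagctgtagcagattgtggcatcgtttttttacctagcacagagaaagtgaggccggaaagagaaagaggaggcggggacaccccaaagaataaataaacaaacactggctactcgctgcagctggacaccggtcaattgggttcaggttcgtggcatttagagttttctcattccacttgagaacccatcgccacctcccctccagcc
The Ngfr window held 4 matches to GGGCGG and the Artn window 2, against 32.7% of all 32851 promoters with at least 1. Of the windows not printed, promoters 1 and 2 of Ntf3, called lower in tSC-like cells, and promoters 2 and 4 of Bdnf also held GGGCGG. The first Gdnf window held TATAAA 31 bases before the start, a word found in 12.4% of promoters, and the second Gdnf window and that of Gfra1 held none of the motifs. The GC content was 70.4% for Ngfr, 63.6% for Artn, 50.8% and 46.8% for Gdnf and 52.4% for Gfra1, against a median of 52.4% over all promoters. Among the 15 promoters of the 7 members with an entry, TGANTCA was found in 1 of Bdnf (6.75% of all promoters hold it), and TGACGTCA and GCGTGGGCG in none, which 1.55% and 0.536% of all promoters hold. No motif searched was found in all 5 windows. Ntrk3 and Gfra3 had no entry.

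Over whole libraries, all 9 members were counted in both sorts. Ngfr had 344 UMIs (4.80 CPM) in the WT and 1939 (21.6 CPM) in the Sod1KO library of the GFP+ sort, and 11 and 131 UMIs in the GFP- sort. Ntrk2 had 8125, 7479, 732 and 4527 UMIs in that order of libraries, Ntrk3 had 3119, 3939, 99 and 944, and Gfra1 had 5676, 8237, 200 and 1944. Gfra3 was scarce, with 239, 282, 8 and 109 UMIs. Every receptor had a higher CPM in the GFP+ than in the GFP- library of its genotype, while Ntf3 had 28.7 and 22.2 CPM in the GFP+ and 63.8 and 48.9 in the GFP- libraries. The sort sets which cells enter a library, so library totals mix levels with cell numbers.

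Bdnf was carried mainly by cells without Schwann markers. In the GFP+ sort it had 33.5 CPM in WT and 34.8 in Sod1KO tenocyte-like cells and 29.2 and 25.3 CPM in smooth muscle-like cells, and the intervals of these classes overlapped in WT but not in Sod1KO. Cluster 17, one of the tenocyte-like clusters, had 112 CPM in WT and 107 in Sod1KO. In WT Schwann-like cells, by contrast, Bdnf had 1 UMI in 1077 mSC-like cells and 0 in 390 tSC-like cells.

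Ntf3, which encodes NT-3, was spread over vessel and connective tissue cells. Its level in WT GFP+ was 69.7 CPM in endothelial-like, 67.7 in smooth muscle-like and 50.6 in mesenchymal-like cells, of which the first pair did not differ beyond their intervals. In Sod1KO GFP+ the order was smooth muscle-like at 72.1, mesenchymal-like at 60.8 and endothelial-like at 55.5 CPM, and neighbouring intervals overlapped. The GFP- endothelial-like cells had 92.9 CPM in WT and 83.6 in Sod1KO. Schwann-like cells held almost no Ntf3.

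Gdnf and Artn were rare transcripts. Gdnf summed to 71 UMIs in the WT and 362 in the Sod1KO library of the GFP+ sort, and to 6 and 23 in those of the GFP- sort. In the GFP+ sort, smooth muscle-like cells held 69.0% of the Gdnf UMIs of WT and 4.97% of those of Sod1KO, where tSC-like cells held 59.4% and cluster 8 held 25.7%. The main source among the sorted cells thus differed between the libraries, while the level in smooth muscle-like cells was 3.67 CPM in WT and 2.17 in Sod1KO. Artn summed to 120, 143, 15 and 64 UMIs in the same order of libraries. Smooth muscle-like cells of the GFP+ sort held 57.5% of its UMIs in WT and 21.0% in Sod1KO, at 5.17 and 3.61 CPM. Tenocyte-like cells held 25.8% and 29.4%, the largest share of a named class in Sod1KO, and tSC-like cells held 0% and 18.9%. The plot of UMI shares by class shows these changes beside those of the other members.

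**Figure D1:**
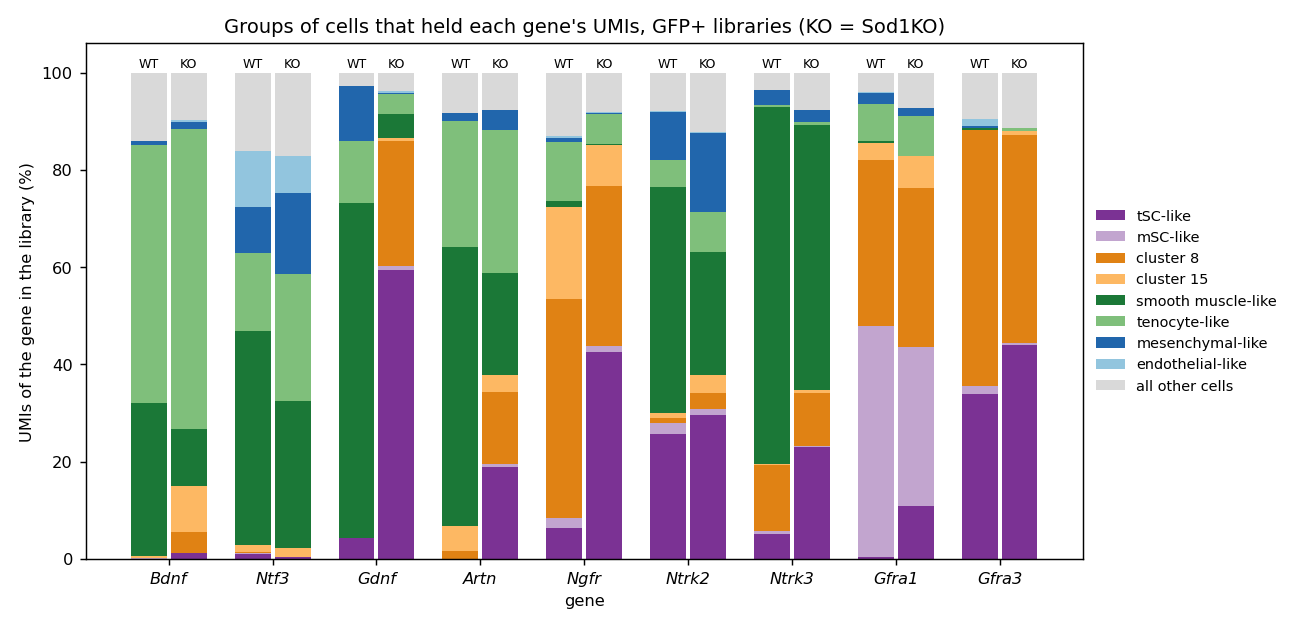
Share of each gene's UMIs (percent of the library, y axis) held by each group of cells (colors), with a bar for the WT and a bar for the Sod1KO library of the GFP+ sort per gene (x axis) and all other cells in grey. For Gdnf the smooth muscle-like share was 69.0% in WT and 4.97% in Sod1KO, and the tSC-like share 4.23% and 59.4%.

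The receptors were placed in part differently from the ligands, though Ntrk2 and Ntrk3, like the ligands, were found in smooth muscle-like cells. Ntrk2, the gene of TrkB, had its highest WT GFP+ level in tSC-like cells at 335 CPM, followed by smooth muscle-like cells at 283 and mesenchymal-like cells at 206, with no overlap between neighbouring intervals. In Sod1KO GFP+ the same classes had 212, 227 and 224 CPM, with overlapping intervals. Ntrk3, the gene of TrkC, was led by smooth muscle-like cells at 172 CPM in WT and 258 in Sod1KO, both GFP+. The counts do not separate full-length from truncated Trk transcripts.

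Gfra1, the GDNF coreceptor, was led by GFP+ mSC-like cells at 377 CPM in WT and 613 in Sod1KO. Perineurial-like cells, named for the sheath around nerve bundles, came next among the named classes with 361 CPM (42 cells) and 297 CPM (88 cells), and the intervals overlapped in WT. The unnamed cluster 8 had 334 and 341 CPM. Gfra3, the artemin coreceptor, lay in perineurial-like cells at 34.4 and 17.0 CPM, in cluster 8 at 21.6 and 15.3 CPM, and in tSC-like cells at 13.0 and 11.9 CPM. In GFP- cells of Sod1KO it was again highest in perineurial-like cells, at 40.7 CPM. Ngfr had 41.7 CPM in WT and 38.0 in Sod1KO perineurial-like cells of the GFP+ sort, and 7.43 in Sod1KO ones of the GFP- sort. Perineurial-like cells were too few in WT for a comparison of genotypes. The plot of levels gives all 9 members over the groups of GFP+ cells.

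**Figure D2:**
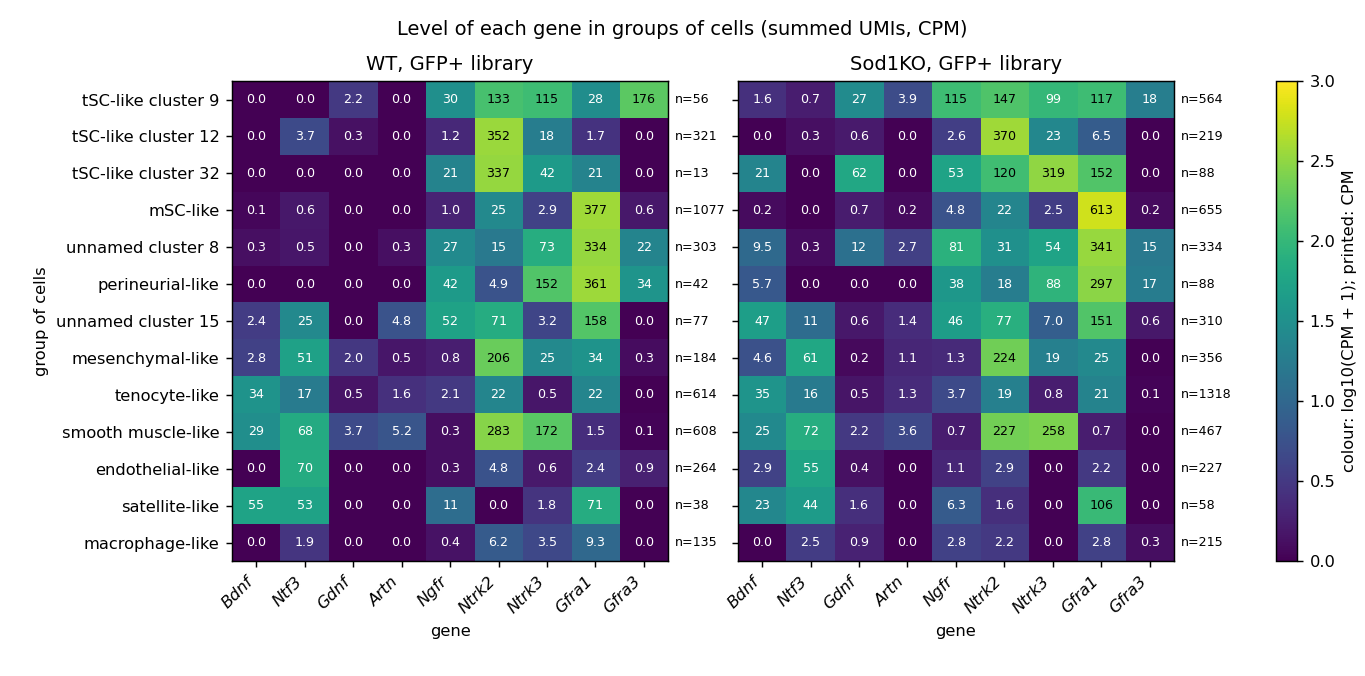
Level of each gene (x axis) in groups of cells (y axis, with the number of cells) of the WT and the Sod1KO library of the GFP+ sort, colored by log10(CPM + 1) with the CPM printed in each field. Gfra1 was highest in mSC-like cells (377 and 613 CPM), and Gdnf had 26.7 CPM in Sod1KO cells of the tSC-like cluster 9.

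In tSC-like cells 7 of the 9 members were called, against 12.1% of the 15079 genes tested in this comparison. The members were chosen with earlier results of these data known. This count and those below, set against all genes, are therefore descriptions and not independent evidence. Bdnf, Gdnf, Artn, Ngfr, Ntrk3 and Gfra1 were higher in the library labelled Sod1KO and Ntf3 was lower, while Ntrk2 and Gfra3 were not called. The class held 390 cells in WT and 871 in Sod1KO, with median depths of 12370 and 9466 UMIs. Its make-up differed: cluster 12 gave 321 of the WT and 219 of the Sod1KO cells, cluster 9 gave 56 and 564, and cluster 32 gave 13 and 88. Values are therefore given for the class and then within the clusters.

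Gdnf showed the largest ratio of the members in this class. It had 3 UMIs in WT (0.482 CPM) and 215 in Sod1KO (20.6 CPM), a log2 ratio of 5.42 with an interval of 3.85 to 7.71. The UMIs came from 3 of 390 and from 99 of 871 cells. Macrophage-like cells of the same libraries, which should lack Gdnf, had 0 and 3 UMIs, and 0.930% of them had a UMI in Sod1KO. Their median depths were 17443 and 13802 UMIs, above those of tSC-like cells. With every cell thinned to 1000 UMIs, which left out 1 shallower cell per library, 0.257% of WT and 2.30% of Sod1KO tSC-like cells kept a Gdnf UMI.

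Artn, the other ligand of the GDNF family, had 0 UMIs in WT and 27 in Sod1KO (2.58 CPM). With WT set to 3 UMIs its log2 ratio was 2.42, with an interval from 2.025 upwards. The Artn UMIs lay in 17 cells, all of cluster 9, and macrophage-like cells had 0 in both libraries. Bdnf had 0 UMIs in WT and 21 in Sod1KO (2.01 CPM), a log2 ratio of 2.06 by the same rule, with an interval from 1.63 upwards. Only 5 cells carried it and 1 cell of cluster 32 held 10 of the 21 UMIs, so this value rests on very few cells, and the call was lost with the stricter cell filter and with the per-cell marker rule. With the mean of single-cell CPM no ratio was formed for Artn or Bdnf, since WT had none. Ntf3 had 21 UMIs in WT (3.37 CPM) and 6 in Sod1KO (0.574 CPM), a log2 ratio of -2.55 (-4.15 to -1.20). The shares of cells with a Ntf3 UMI, 3.33% and 0.574%, lie below the 3.70% and 3.26% of macrophage-like cells, which were deeper and had 1.93 and 2.46 CPM. The Ntf3 call was lost with the per-cell marker rule.

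Among the receptors, Ngfr and Gfra1 had the largest ratios in this class. Ngfr had 22 UMIs in WT (3.53 CPM) and 826 in Sod1KO (79.1 CPM), a log2 ratio of 4.48 (3.88 to 5.17). It was found in 4.87% and 23.3% of cells, against 0.741% and 1.86% of macrophage-like cells, and in 0.771% and 7.01% after thinning. The Ngfr signal was uneven, with 43 of the 826 UMIs in 1 cell. Gfra1 had 24 UMIs in WT (3.86 CPM) and 898 in Sod1KO (86.0 CPM), a log2 ratio of 4.48 (3.90 to 5.13), and 57 of its UMIs lay in 1 cell. Gfra1 in WT tSC-like cells was below the 9.27 CPM of WT macrophage-like cells, of whose 24 UMIs 20 lay in 1 cell. Its ratio was 2.61 without doublet removal and 7.40 with ambient RNA subtracted, and it was called in both.

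The Trk receptors moved differently. Ntrk3 had 157 UMIs in WT (25.2 CPM) and 902 in Sod1KO (86.4 CPM), a log2 ratio of 1.78 (1.53 to 2.03). Ntrk2 had 2088 UMIs (335 CPM) and 2216 (212 CPM), a log2 ratio of -0.66 (-0.75 to -0.57), under the 2-fold limit. The share of cells with a Ntrk2 UMI was 86.4% in WT and 66.0% in Sod1KO, and 28.5% and 16.2% after thinning. Gfra3 had 81 UMIs (13.0 CPM) and 124 (11.9 CPM), with a log2 ratio of -0.13 (-0.55 to 0.29).

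Within cluster 9, Gdnf, Ngfr and Gfra1 were higher in Sod1KO and Gfra3 was lower, 4 of the 6 members tested, against 9.06% of all genes tested there. The cluster had only 56 WT cells, with median depths of 8002 UMIs in WT and 9608 in Sod1KO. Gdnf had 1 UMI in WT (2.17 CPM) and 184 in Sod1KO (26.7 CPM), a log2 ratio of 3.62 (1.12 to 8.93). Ngfr had 30.4 CPM in WT (14 UMIs) and 115 in Sod1KO (793 UMIs), a log2 ratio of 1.92 (1.16 to 2.80). Gfra1 had 28.3 CPM (13 UMIs) and 117 (807 UMIs), a log2 ratio of 2.05 (1.27 to 2.97). These 3 differences thus kept their direction within the cluster, whose make-up also differed between the libraries. The ratios of Ngfr and Gfra1 were smaller than in the class as a whole, while the interval of Gdnf held its class value. Bdnf and Artn had 0 UMIs in WT and 11 and 27 in Sod1KO, but the WT cells of the cluster were too shallow in sum for a ratio.

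The Trk receptors did not show the class difference within cluster 9. Ntrk3 had 115 CPM in WT and 99.0 in Sod1KO, a log2 ratio of -0.22 (-0.62 to 0.21), and Ntrk2 had 133 and 147 CPM, a ratio of 0.15 (-0.22 to 0.55). In cluster 12, Ntrk3 had 17.8 and 23.3 CPM (0.38, -0.07 to 0.83) and Ntrk2 had 352 and 370.5 CPM (0.08, -0.03 to 0.18). The ratios of Ntrk2 and Ntrk3 over the whole class were thus larger than within either cluster, and the clusters differed in their levels of both genes.

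Gfra3 in cluster 9 had 81 UMIs in WT (176 CPM) and 124 in Sod1KO (18.0 CPM), a log2 ratio of -3.29 (-3.71 to -2.87). The UMIs lay in 17 of 56 WT cells and 31 of 564 Sod1KO cells. The cells with a Gfra3 UMI had more Scn7a, a sodium channel gene of nonmyelinating Schwann cells, than the other cells of the cluster, at 2802 against 610 CPM in WT and 1165 against 23.7 in Sod1KO. They had less Btc, which encodes betacellulin, at 12.0 against 88.6 CPM in WT and 74.6 against 214.5 in Sod1KO. For Scn7a and Btc the direction was thus the same in both libraries. It was not for Ngfr, at 54.1 against 17.0 CPM in WT and 77.3 against 117 in Sod1KO, nor for Gfra1, at 66.1 against 6.82 in WT and 104 against 118 in Sod1KO. The summed level of the 8 tSC markers in cluster 9 was 3856 CPM in WT and 1236 in Sod1KO, that of the 10 mSC markers 4624 and 1813, and that of the 7 macrophage markers 6.53 and 8.57. At a finer resolution, a tSC-like cluster of 27 WT and 26 Sod1KO cells of the GFP+ sort had Gfra3 and Scn7a among its leading genes. Another, of 34 WT and 548 Sod1KO cells, had Ucn2, Btc and Olig1. How their cells overlapped with cluster 9 is not given here. The part of these differences in make-up in the member values was not tested.

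In cluster 12 the summed tSC markers were 4463 CPM in WT and 3873 in Sod1KO. There 2 of 5 members tested were called, against 5.88% of all genes. Gfra1 had 10 UMIs (1.75 CPM) in WT and 20 (6.46 CPM) in Sod1KO, a log2 ratio of 1.89 (0.72 to 3.14), levels on either side of the 2.77 CPM of Sod1KO macrophage-like cells. Ntf3 had 21 UMIs and 1 UMI, a ratio of -3.51 (-8.88 to -0.87). Gdnf had 2 UMIs in each library, and Bdnf, Artn and Gfra3 had 0 in both. Without doublet removal both calls were lost, with ratios of 0.11 for Gfra1 and -0.42 for Ntf3. Nearly all Gdnf, Artn and Bdnf UMIs of tSC-like cells therefore lay in clusters 9 and 32. In cluster 32, with 13 WT cells and no comparison, the 88 Sod1KO cells had 62.1 CPM of Gdnf from 14 cells, 319 of Ntrk3, 152 of Gfra1 and 53.5 of Ngfr, and 32 of the 149 Ntrk3 UMIs came from 1 cell.

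**Figure D3:**
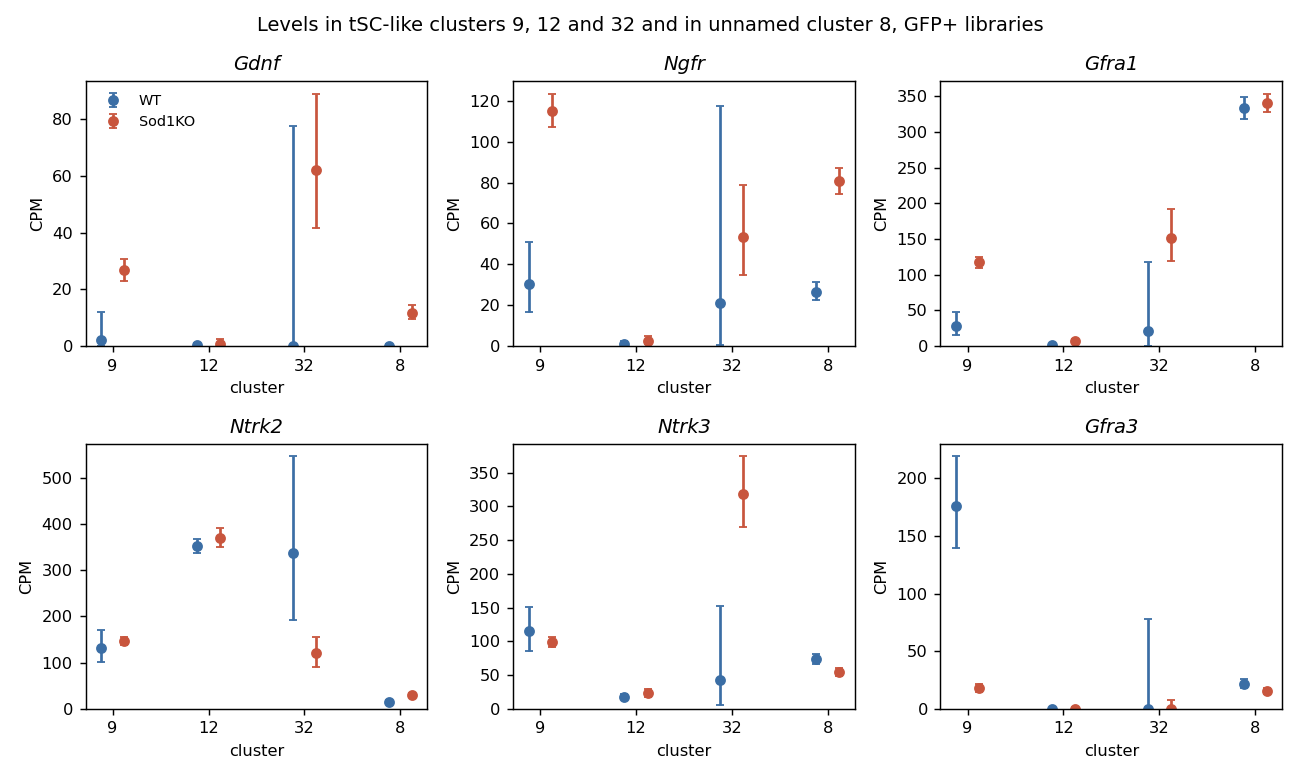
Level (CPM, y axis from 0) of Gdnf, Ngfr, Gfra1, Ntrk2, Ntrk3 and Gfra3 in tSC-like clusters 9, 12 and 32 and in unnamed cluster 8 (x axis), with points for the WT (blue) and Sod1KO (red) libraries of the GFP+ sort and bars for exact 95% Poisson intervals. In cluster 9 Ngfr was 30.4 CPM in WT and 115 in Sod1KO, Ntrk2 was 133 and 147, and Gfra3 was 176 and 18.0.

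In mSC-like cells 1 of 4 members tested was called, against 3.5% of all genes tested. The class held 1077 WT and 655 Sod1KO cells, with median depths of 6238 and 6102 UMIs. Gfra1, the member with the most UMIs here, had 2690 in WT (377 CPM) and 2686 in Sod1KO (613 CPM), a log2 ratio of 0.70 (0.62 to 0.78), under the 2-fold limit, and of 0.19 where cells were named by a per-cell marker rule. Ngfr was called higher, with 7 UMIs in WT (0.981 CPM) and 21 in Sod1KO (4.79 CPM), a ratio of 2.29 (1.00 to 3.77). It came from 6 and 9 cells, 1 of which held 9 UMIs, and the 1.37% of Sod1KO cells with a Ngfr UMI lies below the 1.86% of macrophage-like cells, which were deeper (13802 UMIs) and had 2.77 CPM. The call was lost with the stricter cell filter. Ntrk2 had 24.5 and 21.9 CPM. Gdnf had 0 and 3 UMIs, Artn 0 and 1, Bdnf 1 in each library and Ntf3 4 and 0, too few for a ratio. The 2 Schwann-like classes thus differed in which members they held, with Gfra1 in mSC-like and Ntrk2 in tSC-like cells of WT.

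Cluster 8 carried myelin markers together with perineurial markers and was not named. It held 303 WT and 334 Sod1KO cells, of higher median depth (17784 and 21224 UMIs) and higher doublet score (0.34 and 0.40) than their libraries (0.18 and 0.16). Here 4 of 8 members tested were called, all higher in Sod1KO, against 9.94% of all genes. Gdnf had 0 UMIs in WT and 93 in Sod1KO (11.7 CPM), from 42 cells. With WT set to 3 UMIs its log2 ratio was 4.51, with an interval from 4.18 upwards. Bdnf had 2 UMIs (0.343 CPM) and 75 (9.48 CPM), a log2 ratio of 4.79 (2.88 to 7.86) from 1 and 23 cells, and Artn had 2 and 21 UMIs, a ratio of 2.95 (0.92 to 6.09). Ngfr had 155 UMIs (26.6 CPM) and 638 (80.6 CPM), a ratio of 1.60 (1.34 to 1.86). Gdnf, Bdnf, Artn and Ngfr were thus higher in Sod1KO over this cluster as a whole, and values within its parts are given below.

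The coreceptors did not differ in that way in cluster 8. Gfra1 had 334 CPM in WT and 341 in Sod1KO, a log2 ratio of 0.03 (-0.05 to 0.12). Gfra3 had 21.6 and 15.3 CPM (-0.50, -0.87 to -0.13) and Ntrk3 had 73.2 and 54.3 CPM (-0.43, -0.63 to -0.23). Ntrk2 had 15.5 and 30.8 CPM, a ratio of 1.00 (0.64 to 1.36) that fell just short of the limit. The summed mSC markers of the cluster were 17101 CPM in WT and 9049 in Sod1KO, the perineurial markers 2069 and 1376 and the mesenchymal markers 2092 and 3272. Their part in the member values was not tested.

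The Gdnf of cluster 8 lay in a subset of cells. At a finer resolution the cluster split into a part of 291 WT and 152 Sod1KO cells and a part of 12 WT and 181 Sod1KO cells, and the second part, with doublet scores of 0.52 and 0.44, held 91 of the 93 Gdnf UMIs. The second part also held 66 of the 75 Bdnf and 21 of the 21 Artn UMIs of Sod1KO. Its 12 WT cells had 0 UMIs of Gdnf, Bdnf or Artn and were too few for a call. With each WT count of 0 set to 3 UMIs, the log2 ratio within this part was 0.87 for Gdnf (from 0.54 upwards). That of Bdnf was 0.41 (from 0.07 upwards), and none was formed for Artn. In the first part Ngfr had 26.2 CPM in WT and 30.5 in Sod1KO. In the second part Ngfr had 34.4 CPM in WT, from 10 UMIs in 4 of 12 cells, and 113 CPM in Sod1KO. Its log2 ratio there was 1.72 (0.83 to 2.78). The difference in Ngfr over the cluster thus lay mainly in the second part, whose share of cells also differed between the libraries. Of the 42 Sod1KO cells with a Gdnf UMI, 90.5% also had one of Ngfr, against 47.9% of the other 292, whose median depth was 20588 UMIs against 25926. The cells with Gdnf had 212 CPM of Ngfr against 54.5 and 9.14 of Artn against 1.36. They also had 136 CPM of Olig1 against 6.82 and 213 of Gap43 against 58.2, a pair of genes known in Schwann cells after nerve injury. Marker sums also differed between the parts of the cluster. In Sod1KO the mSC markers summed to 16681 CPM in the first and 3931 in the second part, the tSC markers to 236 and 396 and the mesenchymal markers to 2690 and 3651. The perineurial markers summed there to 1860 CPM in the first and 1073 in the second part. In the cells with Gdnf and in the others, the mSC sum was 2579 and 10334 CPM and the perineurial sum 820 and 1487. The tSC sum, at 323 and 335 CPM, and the mesenchymal sum, at 3124 and 3301, were not higher in the cells with Gdnf. The part of these markers in the values was not tested. In cluster 9 of Sod1KO, 61.4% of 83 cells with a Gdnf UMI had one of Ngfr, against 27.9% of the others.

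Cluster 15, which carried mesenchymal markers with those of the endoneurium and was not named, held Bdnf. It had 77 WT and 310 Sod1KO cells in GFP+, and 2 of 7 members tested were called, against 7.27% of all genes. Bdnf had 3 UMIs in WT (2.41 CPM) and 170 in Sod1KO (47.3 CPM), a log2 ratio of 4.30 (2.73 to 6.59), from 3 and 46 cells, with 22 UMIs in the top cell. The 89 GFP- cells of Sod1KO in this cluster had 83 UMIs of Bdnf, 70.7 CPM, from 15 cells, so the gene was found in the cluster in both sorts of that genotype. The WT library of the GFP- sort held 1 cell of this cluster, so the genotypes could not be compared there. Ntf3 had 31 UMIs (24.9 CPM) and 38 (10.6 CPM), a ratio of -1.23 (-1.96 to -0.50). Ngfr had 52.1 and 45.9 CPM, Ntrk2 had 70.5 and 76.8, and Gfra1 had 158 and 151, and none of these was called. The summed perineurial markers in the cluster were 60.1 CPM in WT and 375 in Sod1KO, and their part in the Bdnf value was not tested.

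In the remaining classes compared, no member was called. That was so for 6 members tested in mesenchymal-like cells (4.67% of all genes called), 8 in smooth muscle-like cells (5.36%), 3 in endothelial-like cells (3.89%) and 8 in tenocyte-like cells (4.61%) of the GFP+ sort, and for 3 in endothelial-like cells of the GFP- sort (6.82%). Ntrk3 in smooth muscle-like cells had 172 CPM in WT and 258 in Sod1KO, a log2 ratio of 0.59 (0.51 to 0.67). Smooth muscle-like cells of Sod1KO GFP- had 134 CPM. Ngfr in tenocyte-like cells had 2.14 and 3.67 CPM (0.78, 0.26 to 1.32). Bdnf in tenocyte-like cells, which held 53.2% and 61.9% of its UMIs in the GFP+ sort, had 658 and 1109 UMIs. Its log2 ratio there was 0.05 (-0.09 to 0.19). In the GFP- sort, unnamed clusters held 87.5% of the Bdnf UMIs of WT and 64.8% of those of Sod1KO. The plot of ratios sets the 9 members side by side in 6 of these groups.

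**Figure D4:**
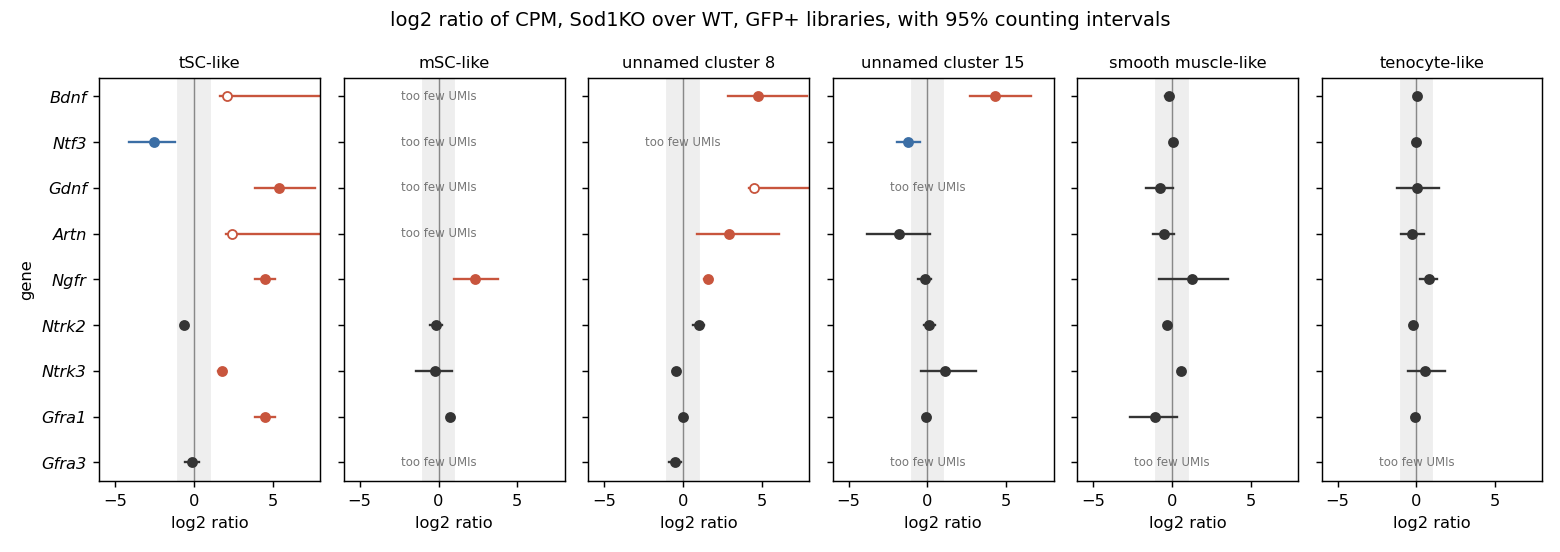
Log2 ratio of CPM, library labelled Sod1KO over WT (x axis), of each member (y axis) in 6 groups of GFP+ cells, with exact 95% intervals drawn between -6 and 8, red for called higher, blue for called lower, open circles where a library had 0 UMIs and a grey band for ratios under 2-fold. The tSC-like points of Gdnf (5.42), Ngfr (4.48) and Gfra1 (4.48) lie right of the band, and no member was called in smooth muscle-like or tenocyte-like cells.

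The wider pathway was followed in lists of genes that are not members. The repair Schwann list was put together with the study's topic known and is not independent evidence of a direction. In tSC-like cells, 0 of 13 tested genes of 15 in the neurotrophin pathway list were called, with a median log2 ratio of 0.06 against -0.04 over all genes tested. By the same rule 12.1% of all genes tested were called. Of its coreceptors, Sort1, the gene of sortilin, had 78.9 CPM in WT and 85.4 in Sod1KO.

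Of 13 genes in the GDNF pathway list, 10 were tested in tSC-like cells and 1 was called, near the 12.1% of all genes tested. Gfra2, the neurturin coreceptor, had 192 UMIs (30.8 CPM) in WT and 851 (81.5 CPM) in Sod1KO, a log2 ratio of 1.40 (1.17 to 1.64). Within cluster 9 the ratio of Gfra2 was -1.03, the other direction, and in cluster 12 it had 15.9 CPM in WT and 30.7 in Sod1KO. Ret, the signalling receptor of the family, had 1 UMI in each library in tSC-like cells and 0 in mSC-like cells. Ligands and coreceptors of the GDNF family were thus counted in Schwann-like cells with almost no Ret UMI in the same cells.

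The neuropoietic cytokines, which also act on neurons, had 2 of 9 tested genes called in tSC-like cells, against 12.1% of all genes tested. Lif, the gene of leukemia inhibitory factor, had 0 UMIs in WT and 11 in Sod1KO, and its receptor Lifr had 151 and 58.4 CPM, a log2 ratio of -1.37 (-1.52 to -1.22). Cntf, ciliary neurotrophic factor of Schwann cells, had 49.8 and 31.0 CPM, a ratio of -0.68 (-0.91 to -0.45), not called. Of the 7 repair Schwann genes, 6 were tested and 4 called, all higher in Sod1KO, with a median of 4.20. Runx2, a transcription factor, had 43 UMIs (6.91 CPM) and 3500 (335 CPM), a ratio of 5.60 (5.17 to 6.07). Gap43, a growth-associated protein, had 29 and 1344 UMIs (4.79, 4.26 to 5.37), Btc had 78 and 1594 (3.61, 3.28 to 3.95), and Olig1 had 0 and 333. Jun, which encodes a factor of Schwann cell repair, had 2460 and 2148 CPM, and Sox2 had 48.7 and 83.6 CPM, and neither was called.

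In cluster 8, 4 of 6 tested repair Schwann genes were called, all higher, against 9.94% of all genes. The median log2 ratio of the 6 was 4.73, against 0.02 over all genes. Of the neuropoietic genes, Il6 and Osmr were higher and Cntf and Cntfr lower, and no gene of the neurotrophin or GDNF pathway lists was called. In mSC-like cells 4 listed genes were called, all higher in Sod1KO. They were 1 of 6 tested neuropoietic and 3 of 5 tested repair Schwann genes, against 3.5% of all genes. Osmr, the oncostatin M receptor, had 29 and 75 UMIs (log2 ratio 2.07, 1.44 to 2.75), Runx2 had 19 and 46 (1.98, 1.18 to 2.83), Btc had 13 and 30 (1.91, 0.93 to 2.97) and Gap43 had 1 and 10 (4.03, 1.21 to 9.46). The 2.28 CPM of Gap43 in these Sod1KO cells lay under the 3.07 CPM of macrophage-like cells, and the 6.84 CPM of Btc lay above their 3.38 CPM. In smooth muscle-like cells 2 of 13 tested neurotrophin pathway genes were called, Sorcs3 and Pcsk5, both higher, against 5.36% of all genes. The cytokine genes Cntf and Clcf1 were also called higher there. Elsewhere Sorcs3 was called lower in tenocyte-like cells, and Pcsk5 in clusters 9 and 15. Calls of listed genes in other groups are not all given. Of the listed ligands, Ntf5, the gene of neurotrophin-4, had 2 and 5 UMIs in the GFP+ and 0 and 6 in the GFP- libraries, and Shh had 0 in all 4.

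**Figure D5:**
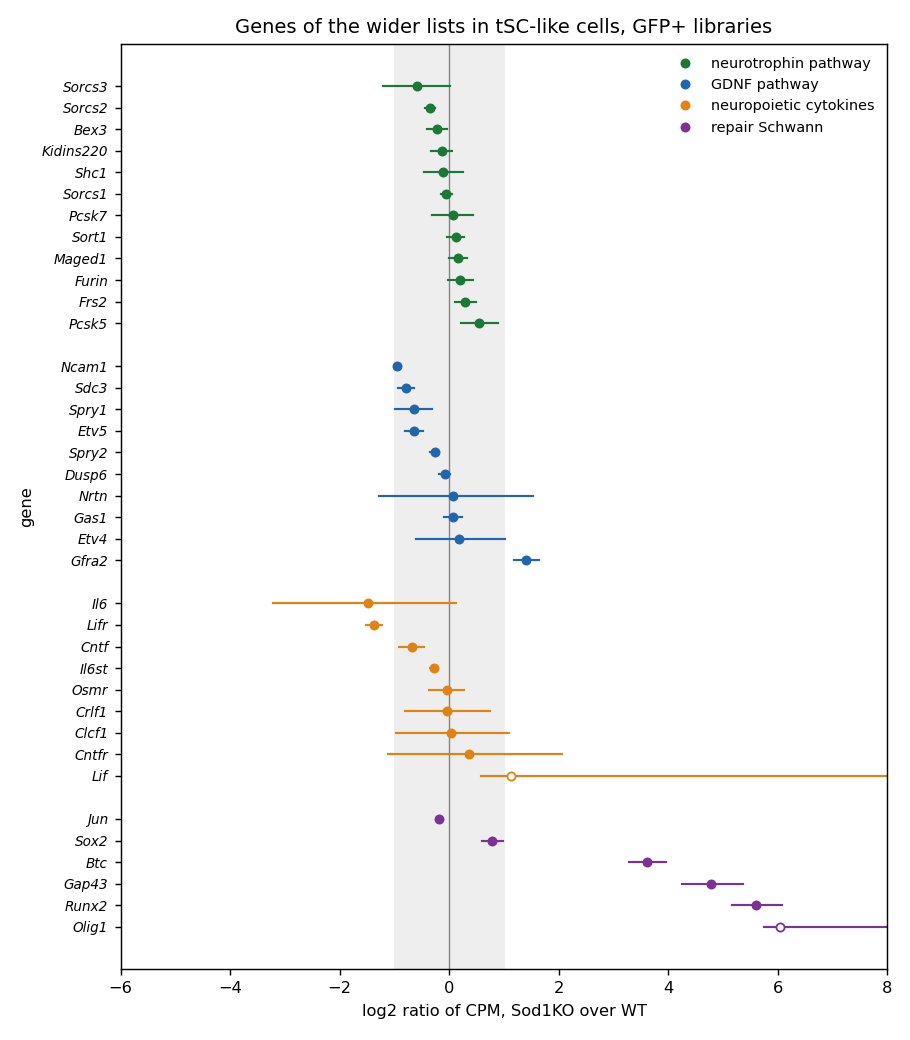
Log2 ratio of CPM, library labelled Sod1KO over WT (x axis), of tested genes of the wider lists (y axis, colored by list) in GFP+ tSC-like cells, with exact 95% intervals drawn between -6 and 8, open circles where a library had 0 UMIs and a grey band for ratios under 2-fold. Runx2 (5.60) and Gap43 (4.79) of the repair Schwann list lie right of the band, and the points of the neurotrophin pathway list lie within it.

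The genes whose pattern was most like that of each member were found by Pearson's r of log2(CPM + 1) over 27 groups of class and library, which share libraries and depth, so r is a description. Members were not compared with each other. For Gdnf the nearest were Tafa2 (r = 0.78), Ucn2 (0.74) and Syt4 (0.73), and for Artn Cck (0.82), E030013I19Rik (0.80) and Gm15677 (0.80). For Bdnf they included Gnao1 (0.86) and Hoxa10 (0.85), and for Ntf3 Msx1 (0.89) and Fam13c (0.85). Among the receptors, Ngfr was nearest to Erich5 (0.81), Gm40841 (0.79) and Cnksr2 (0.78), Ntrk2 to Actr3b (0.93), Astn2 (0.87) and Iah1 (0.87), and Ntrk3 to Kcnd3 (0.91), 1500009L16Rik (0.85) and Aarsd1 (0.84). Gfra1 was nearest to Scd1 (0.88), Fmn2 (0.87) and Pnmal2 (0.86), and Gfra3 to Lmo4 (0.90), Gjb2 (0.89) and Foxd2 (0.87).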

How the data were processed

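The deposited values are raw UMI counts per gene and cell barcode, which per the labels the authors made with Cell Ranger 7.1.0 on mm10, with Seurat 4.30 named for later steps, although a newer Cell Ranger is given in the methods of the paper. Ambient RNA and doublets were removed by the authors only later, and the files still hold both. Both genotypes were harvested and processed together.

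From the counts, cells were kept above 200 detected genes and below a mitochondrial share of 10%, and the cells nearest to simulated doublets were removed at 0.8% per 1000 barcodes. On a log scale of UMIs per 10000, the 2000 most variable genes, leaving out 54 member and pathway genes, gave 30 principal components, a graph of 20 neighbours and 36 Leiden clusters at resolution 1 (leidenalg 0.10.2 and igraph 0.11.9, scikit-learn 1.9.0, with numpy 2.4.6, pandas 2.3.3, matplotlib 3.10.9 and scipy 1.17.1 in Python 3.11.15). A cluster was named where at least 3 markers of 1 of 21 lists had at least 20 CPM and 2 times the mean of the other clusters, limits set after looking at the clusters. The general Schwann and cycling lists named no cluster. Of the others, the list with the largest share past these limits gave the name. None was given where another list had 50% or more past them or more markers among the 10 leading genes (closely related types excepted), where a Schwann name lacked 3 general Schwann markers, or where cells were over 3-fold shallower than their library with no marker of the name among the 10, and 15 clusters stayed unnamed. No member is a marker.

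UMIs were summed per library and class. The ratio is log2 of CPM in the library labelled Sod1KO over WT, with an exact conditional binomial 95% interval, and shares and levels have exact binomial and Poisson intervals. Classes with under 50 cells in a library were not compared, among them mesenchymal-like cells of GFP-, with 37 cells in WT. The ratio and its interval were tested on simulated data. The members and lists were chosen with earlier results of these data known. Named by rule were the members, the genes of the wider lists called in GFP+ tSC-like or mSC-like cells or with under 10 UMIs in every library, and the 3 genes nearest in pattern to each member. A few genes under this rule are not reported here. Other listed genes, and the genes compared between cells with and without a Gdnf or Gfra3 UMI, were chosen after their values were seen. Clusters 8, 9, 12 and 15, the parts of cluster 8, tenocyte-like cells and GFP- endothelial-like cells were added to the comparisons after the data were seen, as were the splits of cells by a Gdnf or Gfra3 UMI. Promoter sequences are from RefSeq. Alternatives were a stricter cell filter, no doublet removal, other clustering resolutions, a per-cell marker rule, subtraction of ambient RNA, the mean of single-cell CPM, and other limits for a call.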

Additional observations from a re-analysis of the deposited data

How the results depend on the processing

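No comparison has replicates, so leaving out a replicate could not be done, and no paired analysis was possible because each group is 1 library. Of 127 counts of members called under other settings, 107 lay within 1.5 times the value reported and 20 did not. Of 621 ratios of members, 584 moved by less than their counting interval and 37 by more, and 0 of the called ratios changed direction. Ratios under the limit did change sign in places, such as that of Ntrk2 in mSC-like cells, which was 1.06 with the per-cell marker rule. The shares of cells after thinning to 2000 UMIs instead of 1000 moved in 43 of 64 cases. In tSC-like cells 5 to 8 members were called. The count was 6 with the stricter cell filter (Bdnf lost), 5 with the mean of single-cell CPM (Bdnf and Artn gave no ratio, at 0 in WT), 5 with the per-cell marker rule (Bdnf and Ntf3 lost) and 8 at 1.5-fold (Ntrk2 added). Gdnf, Ngfr, Ntrk3 and Gfra1 were called under every setting run there. No setting held the cluster make-up of the class fixed, and Ntrk3 was not called within cluster 9 or cluster 12.

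In mSC-like cells the count of 1 became 0 with the stricter cell filter, 5 with the per-cell marker rule (Bdnf, Gdnf, Artn, Ngfr and Ntrk2) and 2 at 1.5-fold (Ngfr and Gfra1). Counts of 0 changed as follows. Without doublet removal there was 1 in mesenchymal-like (Bdnf), 2 in smooth muscle-like (Ngfr and Gfra3) and 2 in tenocyte-like cells (Ngfr and Ntrk3). With the per-cell marker rule there were 2 in mesenchymal-like (Bdnf and Ngfr), 1 in smooth muscle-like (Ngfr), 2 in GFP+ endothelial-like (Ngfr and Ntrk3) and 1 in GFP- endothelial-like cells (Gfra1). At resolution 2 there were 2 in GFP+ (Bdnf and Ntrk3) and 1 in GFP- endothelial-like cells (Gfra1). With at least 1 UMI in place of 10 there was 1 in mesenchymal-like (Gdnf) and 1 in GFP+ endothelial-like cells (Bdnf), with the stricter cell filter 1 in smooth muscle-like cells (Gdnf), and at 1.5-fold 1 each in smooth muscle-like (Ntrk3) and tenocyte-like cells (Ngfr). In cluster 15 the count of 2 became 1 with the mean of single-cell CPM (Bdnf), and in cluster 12 it became 1 without doublet removal (Bdnf) and 1 with ambient RNA subtracted (Ntf3). The cause was not tested. Depth limits the rare ligands, since Gdnf, Artn and Bdnf rest on under 100 UMIs in most classes, and the WT cells of cluster 9 are few.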
